A study of Mus musculus with 10 samples.

Results

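The signal transducers and activators of transcription (STATs) and the Janus kinases (JAKs) were followed here through 9 genes, the STAT genes Stat2, Stat3, Stat4, Stat5a, Stat5b and Stat6 and the kinase genes Jak1, Jak2 and Tyk2, in mouse peritoneal macrophages. They were taken by name from the 39488 rows of the deposited count table, and all 9 had a row and enough counts to be tested. The RNA-seq data came from 5 libraries of control cells and 5 of the ox-LDL group. By the labels, the cells were from 8 weeks old C57BL/6 mice and the controls were untreated. By the same labels, the ox-LDL group received lipopolysaccharide (LPS, 100 ng/ml), a bacterial product that activates macrophages. It also received oxidized low-density lipoprotein (ox-LDL, 100 µg/ml), a modified lipid particle found in atherosclerotic plaques, for 16 h. The study describes LPS as a priming step before ox-LDL. By the study's methods, macrophages of both groups were elicited with thioglycollate, an irritant that recruits monocytes to the peritoneal cavity. A figure legend of the study and the treatment protocol shared by the samples leave room for LPS in the control cells too. The labels that call the controls untreated were followed. With LPS in the ox-LDL group alone, the effects of LPS and ox-LDL cannot be told apart. The labels describe the libraries as biological replicates without saying whether each came from its own animal, so the p-values measure the spread between these libraries.

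Janus kinases sit on the inner side of cytokine receptors and phosphorylate each other and the receptor once a cytokine binds. STAT proteins dock there, are phosphorylated, pair up and enter the nucleus to switch on genes, among them inhibitors of the same pathway. In macrophages, type I interferons act through STAT2 with its partner IRF9, IL-6 and IL-10 through STAT3, and IL-12 through STAT4. Granulocyte-macrophage colony stimulating factor (GM-CSF) acts through STAT5, and IL-4 and IL-13 act through STAT6. In bulk RNA, fewer cells of a type and less RNA per cell cannot be told apart, and the activity of these proteins, which depends on phosphorylation, was not measured.

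The sequence upstream of the transcription start is shown for the 3 genes that rose in the ox-LDL group, Stat2, Stat3 and Jak2, and for the second start of Stat4, the only other one of the 12 windows of the 9 genes with a match to the interferon-stimulated response element (ISRE). Each is the 250 bases before a RefSeq start, 5′ to 3′ on the strand of the gene, in build GRCm38.p6, and capitals mark the ISRE letters GAAANNGAAA on either strand.
Stat2, chr10:128270248-128270497 (+): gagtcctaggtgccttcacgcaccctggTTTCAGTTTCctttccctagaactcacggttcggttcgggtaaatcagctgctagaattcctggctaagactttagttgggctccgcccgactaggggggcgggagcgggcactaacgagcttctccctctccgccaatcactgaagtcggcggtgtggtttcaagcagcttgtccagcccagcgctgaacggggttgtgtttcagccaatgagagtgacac
Stat3, chr11:100939541-100939790 (-): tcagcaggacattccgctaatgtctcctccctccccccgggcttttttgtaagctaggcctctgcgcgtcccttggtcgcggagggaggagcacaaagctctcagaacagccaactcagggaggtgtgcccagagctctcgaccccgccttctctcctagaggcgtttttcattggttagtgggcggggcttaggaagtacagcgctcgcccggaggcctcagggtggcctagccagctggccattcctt
Jak2, chr19:29251553-29251802 (+): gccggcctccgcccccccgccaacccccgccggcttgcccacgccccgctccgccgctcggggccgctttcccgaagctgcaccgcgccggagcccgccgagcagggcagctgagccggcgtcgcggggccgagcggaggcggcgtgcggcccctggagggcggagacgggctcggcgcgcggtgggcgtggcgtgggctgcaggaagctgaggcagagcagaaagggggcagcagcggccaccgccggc
Stat4, second start, chr1:52007990-52008239 (+): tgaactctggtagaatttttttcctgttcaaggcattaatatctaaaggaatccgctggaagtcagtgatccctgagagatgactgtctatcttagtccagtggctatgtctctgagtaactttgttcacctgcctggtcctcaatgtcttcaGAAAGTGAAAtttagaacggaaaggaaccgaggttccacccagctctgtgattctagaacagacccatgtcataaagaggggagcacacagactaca
The Stat2 match, TTTCAGTTTC, lay at bases -222 to -213 from the start, and the Stat4 match, GAAAGTGAAA, at bases -97 to -88. ISRE letters were found in 2.98% of 32851 mouse windows of the same length. The STAT element TTCNNNGAA, in 7.02% of all windows, was found in 0 of the 12 windows. Its form with a wider spacer, TTCNNNNGAA, in 5.85% of all windows, was found in the Stat2 window alone, as TTCCCTAGAA at bases -210 to -201, just beside the ISRE match without overlapping it. A match is a description of letters, and binding was not measured.

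Counts were normalized by edgeR's TMM method to CPM, counts scaled to make the libraries comparable. Differences were tested in edgeR with its quasi-likelihood fit over the 12654 genes with enough counts, and p-values were adjusted by Benjamini-Hochberg. A gene was called at an adjusted p below 0.01. The libraries held 19257131 to 20687289 counts each, and TMM factors were 0.916 to 1.18 in the control group and 0.593 to 1.19 in the ox-LDL group. The factor of 0.593 was that of ox-LDL replicate 2, which stood apart by gene length. Relative to the median of the other ox-LDL libraries, its log2 CPM was 1.97 higher in the median gene under 1000 bases and 0.69 lower in the median gene of 3500 to 5000 bases. The implied transcript lengths of the 9 STAT and JAK genes were 2549 to 4710 bases, and all 9 were lower in that library than the median of the other ox-LDL libraries, by 0.19 for Stat4 to 1.73 for Stat5a on the log2 scale. Fits were made with and without this library, and 1 more with each library's trend on gene length removed. The part of gene length in the results was not tested beyond these fits. Over all genes tested the median log2 fold change was 0.10 with TMM and -0.09 with scaling by library size alone, a shift that applies to every gene below.

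Of the 9 genes, 3 rose in ox-LDL-treated macrophages, Stat2, Stat3 and Jak2, where 9.4% of all genes tested did and 14.7% were called in either direction. None of the 9 fell by edgeR's test at any p under 0.05, adjusted or not, nor by DESeq2 or limma-voom at an adjusted p below 0.01, where 5.35% of all genes fell in the edgeR fit. Stat2, Stat3 and Jak2 were also the 3 genes whose groups did not overlap, a pattern found with higher ox-LDL values in 11.6% and with lower ones in 9.11% of all genes tested. With the further cutoff of a log2 fold change above 2, Stat2 alone remained, against 4.78% of all genes. The median log2 fold change of the 9 genes was 0.73.

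**Figure D1:**
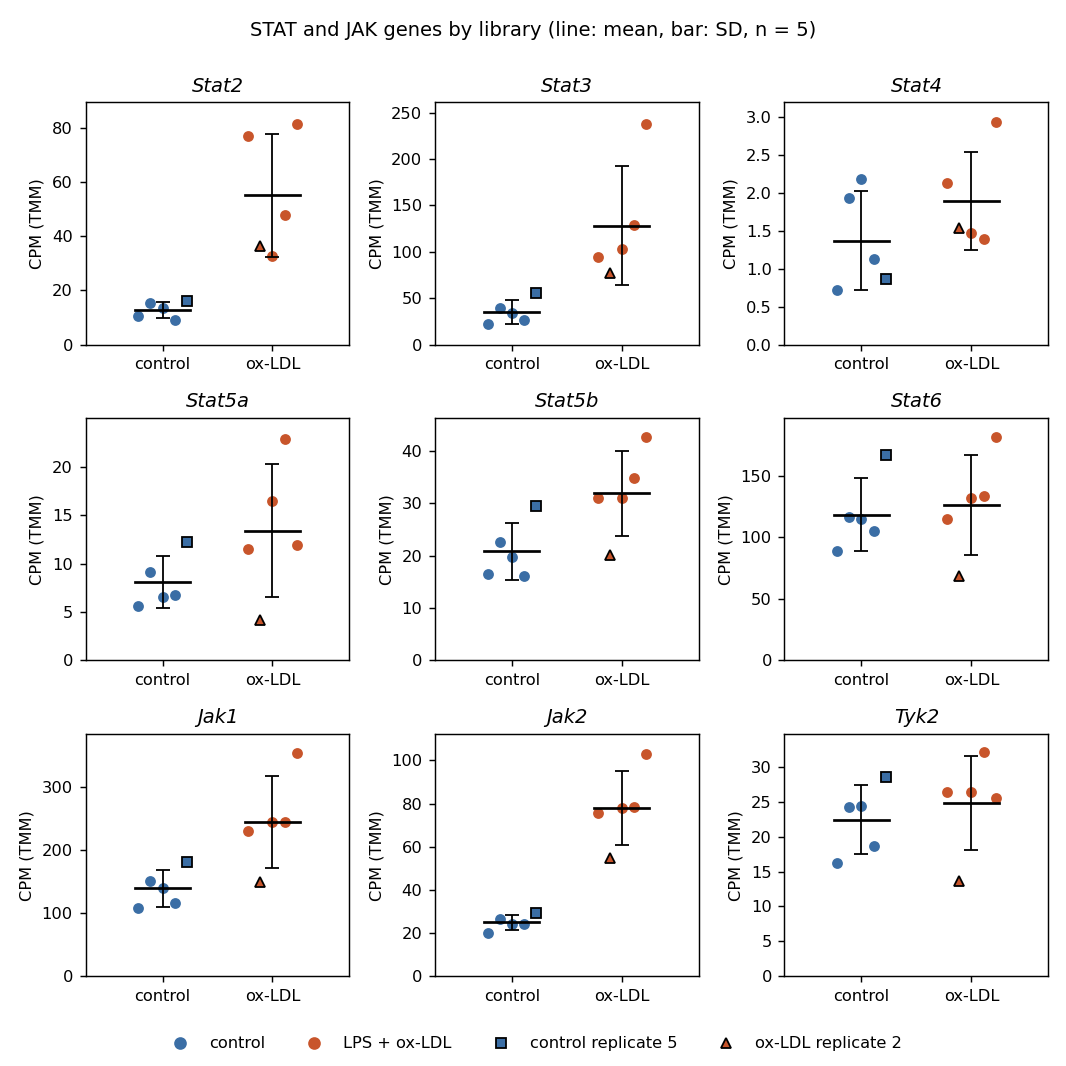
TMM-normalized CPM of the 9 genes in each library, with control libraries in blue, ox-LDL libraries in orange, the mean as a line and the SD as a bar (n = 5). The groups are separate for Stat2, Stat3 and Jak2, and ox-LDL replicate 2 (triangle) is the lowest ox-LDL library for 7 of the 9 genes.

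Stat2, the STAT that forms the interferon-stimulated gene factor with IRF9, had 10.4, 15.2, 13.5, 9.06 and 16.0 CPM in control replicates 1 to 5 and 76.9, 36.2, 32.9, 47.7 and 81.5 CPM in ox-LDL replicates 1 to 5. The groups did not overlap, and ox-LDL replicates 1 and 5 were highest. The mean rose from 12.8 ± 3.01 CPM to 55.0 ± 22.8 CPM (± is SD and n is 5 per group here and below), for a log2 fold change of 2.10 (SE 0.30, edgeR adjusted p = 0.000371). Among 12654 genes it ranked 435 by p. Without ox-LDL replicate 2 the log2 fold change was 2.18.

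Stat3, the STAT of IL-6 and IL-10 signaling, had 22.2, 39.3, 34.5, 26.6 and 55.4 CPM in control replicates 1 to 5 and 94.1, 77.2, 103, 129 and 238 CPM in ox-LDL replicates 1 to 5. Replicate 5 was the highest library of both groups, and the groups did not overlap. The mean rose from 35.6 ± 12.9 to 128 ± 64.1 CPM, a log2 fold change of 1.85 (SE 0.34, edgeR adjusted p = 0.00210). Without ox-LDL replicate 2 it was 1.95, and over all single libraries left out it was 1.49 to 2.06. With scaling by library size alone it was 1.64 and missed the threshold by a narrow margin (edgeR adjusted p = 0.01001).

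Stat4, the STAT of IL-12 signaling that is best known from T and natural killer cells, was the lowest of the 9, with 13 to 51 counts per library. It had 0.719, 1.93, 2.18, 1.13 and 0.869 CPM in the control libraries and 2.13, 1.54, 1.46, 1.39 and 2.93 CPM in the ox-LDL libraries. The groups overlapped, with a log2 fold change of 0.46 (95% interval -0.28 to 1.21, edgeR adjusted p = 0.405). Cd3e, a defining T cell marker, had at most 1 count in any library. The summed level of 7 T cell markers was 0.658 to 1.4 CPM in controls and 1.04 to 1.81 CPM in ox-LDL libraries, and that of 6 natural killer cell markers was 0.305 to 1.10 and 0 to 0.899 CPM, on the scale of library size alone.

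Stat5a and Stat5b are near-copies of each other that act in GM-CSF signaling. Both were higher in the mean of the ox-LDL group but not past the threshold. Stat5a had 5.64, 9.16, 6.50, 6.80 and 12.2 CPM in control replicates 1 to 5 and 11.5, 4.20, 16.5, 22.9 and 11.9 CPM in ox-LDL replicates 1 to 5. Its lowest value of all 10 libraries was that of ox-LDL replicate 2, and the log2 fold change was 0.73 (SE 0.38, edgeR adjusted p = 0.172). Stat5b had 16.4, 22.5, 19.8, 16.0 and 29.4 CPM in the controls and 30.9, 20.2, 31.1, 34.8 and 42.6 CPM in the ox-LDL libraries. Apart from control replicate 5 and ox-LDL replicate 2, the groups were separate for both genes. The log2 fold change of Stat5b was 0.62 (SE 0.23, edgeR adjusted p = 0.0694). Without those 2 libraries, a choice made after seeing the data, edgeR gave 1.13 (adjusted p = 0.00534) for Stat5a and 0.88 (adjusted p = 0.00271) for Stat5b.

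Stat6, the STAT of IL-4 and IL-13 signaling, had 88.6, 116, 115, 105 and 167 CPM in the control libraries and 115, 68.4, 132, 133 and 182 CPM in the ox-LDL libraries. Replicate 5 was highest in both groups, ox-LDL replicate 2 was the lowest of all, and the other 7 libraries lay between. The log2 fold change was 0.09 (95% interval -0.42 to 0.60, edgeR adjusted p = 0.838), and its sign was negative with upper-quartile scaling (-0.06), library size alone (-0.06) and FPKM (-0.14).

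Among the kinases, Jak2 serves the receptors of interferon-gamma, IL-12 and GM-CSF. It had 20.2, 26.5, 24.3, 24.3 and 29.4 CPM in control replicates 1 to 5 and 75.4, 54.7, 77.9, 78.7 and 103 CPM in ox-LDL replicates 1 to 5. The lowest ox-LDL library, replicate 2, was still above every control. The mean rose from 25.0 ± 3.36 to 77.9 ± 17.1 CPM, a log2 fold change of 1.64 (SE 0.19, edgeR adjusted p = 0.000112), with the smallest SE of the 9 genes. It ranked 219 by p among the 12654 genes, and without ox-LDL replicate 2 the log2 fold change was 1.71.

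Jak1, the kinase shared by interferon and IL-6 type receptors, had 108, 151, 140, 117 and 180 CPM in the controls and 229, 149, 245, 244 and 353 CPM in the ox-LDL libraries. Only ox-LDL replicate 2 lay within the control range. The log2 fold change was 0.81 (SE 0.25), and its edgeR adjusted p of 0.0298 was not past 0.01, though below 0.05, as for 16.2% of all genes with higher values. Without ox-LDL replicate 2 it was 0.91 at an edgeR adjusted p of 0.00363, and DESeq2 on all libraries gave an adjusted p of 0.00638. The edgeR adjusted p was above 0.05 with upper-quartile scaling (0.0567), library size alone (0.186) and the block of replicate numbers (0.0501), without control replicate 1, 2, 3 or 4 or ox-LDL replicate 3, 4 or 5 (0.0538 to 0.0821), and, by limma, with log2(FPKM + 1) (0.230).

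Tyk2, the partner of Jak1 at the type I interferon receptor and of Jak2 at the IL-12 receptor, had 16.2, 24.3, 24.4, 18.6 and 28.5 CPM in the controls and 26.4, 13.7, 26.4, 32.1 and 25.6 CPM in the ox-LDL libraries. The ranges overlapped, with ox-LDL replicate 2 again lowest of all. The log2 fold change was 0.15 (95% interval -0.31 to 0.61, edgeR adjusted p = 0.684), and its sign was negative with FPKM (-0.01) and with each library's trend on gene length removed (-0.03).

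**Figure D2:**
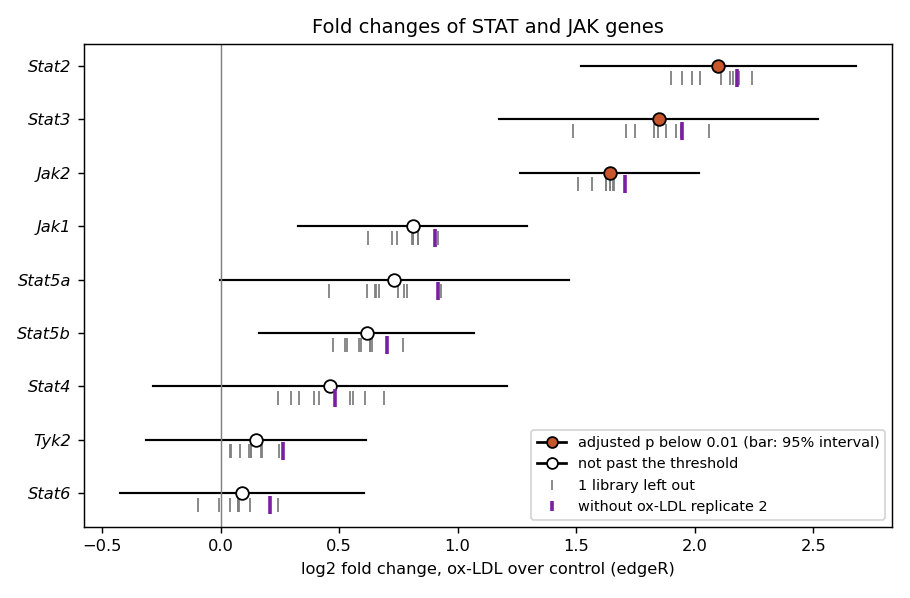
Log2 fold change of each gene, ox-LDL over control, as a point with its 95% interval from edgeR, with ticks for the value when 1 library was left out (purple for ox-LDL replicate 2). Filled points, adjusted p below 0.01, are Stat2 at 2.10, Stat3 at 1.85 and Jak2 at 1.64, whereas Stat6 at 0.09 and Tyk2 at 0.15 lie nearest to 0.

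Levels were compared between genes by FPKM, which divides by transcript length. In control macrophages Stat6 (35.2 ± 11.4 FPKM) and Jak1 (31.5 ± 9.28) stood above the other 7, followed by Stat3 (8.98), Jak2 (5.83), Stat5b (5.57), Tyk2 (5.41), Stat2 (3.31), Stat5a (2.47) and Stat4 (0.586). Only Jak1 over Stat3 and Stat5a over Stat4 were neighbours whose control ranges did not overlap, while Jak2, Stat5b and Tyk2 changed places from library to library. In the ox-LDL group the order was Jak1 (49.9 ± 17.8 FPKM), Stat6 (33.7 ± 12.8), Stat3 (27.9), Jak2 (16.2), Stat2 (12.7), Stat5b (7.11), Tyk2 (5.63), Stat5a (3.83) and Stat4 (0.684), with every pair of neighbours overlapping in range. Stat6 was above Jak1 in 5 of 5 control libraries and below it in 5 of 5 ox-LDL libraries. Stat2 moved from the seventh place to the fifth, above Stat5b and Tyk2 in the mean.

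Because a share within a library needs no scaling between libraries, each gene was also expressed as a share of the summed FPKM of the 6 STAT genes or of the 3 JAK genes measured here. Summed STAT values were 34.2 to 84.1 FPKM in the controls and 29.97 to 115 FPKM in the ox-LDL libraries, and summed JAK values were 27.8 to 57.8 and 27.2 to 84.9 FPKM. Shares of 1 family add up to a whole, so that a larger share of one gene is a smaller share of the others. Each share was compared by a two-sided exact permutation test over all arrangements of the 10 libraries, whose smallest p is 0.00794, with adjustment over the 9 genes, and 7 of the 9 shares differed at an adjusted p below 0.05.

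Stat6 held 64.5%, 59.4%, 63.1%, 66.4% and 62.2% of STAT FPKM in control replicates 1 to 5 and 38.5%, 36.7%, 45.4%, 39.0% and 36.0% in ox-LDL replicates 1 to 5. The groups were far apart, with means of 63.1 ± 2.63% and 39.1 ± 3.71% (exact permutation test, adjusted p = 0.0143), although its level in CPM did not pass the test. Stat3 held 13.8%, 16.9%, 15.9%, 14.1% and 17.3% in the controls and 26.3%, 35.0%, 29.7%, 32.0% and 39.5% in the ox-LDL libraries. Its mean share was 15.6 ± 1.59% and 32.5 ± 5.04% (exact permutation test, adjusted p = 0.0143). Stat2 held 5.95 ± 0.794% in the controls and 15.0 ± 4.78% in the ox-LDL group, with the highest share, 22.2%, in ox-LDL replicate 1 (exact permutation test, adjusted p = 0.0143). The share of Stat5b was 9.85 ± 0.828% and 8.31 ± 0.90%, with overlapping ranges (exact permutation test, adjusted p = 0.0408). It did not stay below 0.05 when control replicate 1, 2 or 5 or ox-LDL replicate 1, 2, 3 or 5 was left out, where the adjusted p was 0.0612 to 0.0816. Stat5a (4.38% and 4.23%) and Stat4 (1.08% and 0.834%) did not pass the test.

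Jak2 held 14.5%, 13.2%, 13.3%, 15.7% and 12.6% of JAK FPKM in control replicates 1 to 5 and 23.3%, 25.3%, 22.4%, 22.6% and 21.3% in ox-LDL replicates 1 to 5. The groups did not overlap, with means of 13.9 ± 1.24% and 23.0 ± 1.45% (exact permutation test, adjusted p = 0.0143). Tyk2 held 12.5 ± 0.611% in the controls and 7.75 ± 1.62% in the ox-LDL group, again without overlap (exact permutation test, adjusted p = 0.0143). Jak1 held most of the JAK total in both groups, 73.6 ± 0.985% and 69.3 ± 2.31%, with ox-LDL replicate 5 at 73.2% inside the control range (exact permutation test, adjusted p = 0.0238). Ox-LDL replicate 2, low in CPM for 7 of the genes, had shares between or near those of the other ox-LDL libraries, with 36.7% for Stat6 and 25.3% for Jak2.

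**Figure D3:**
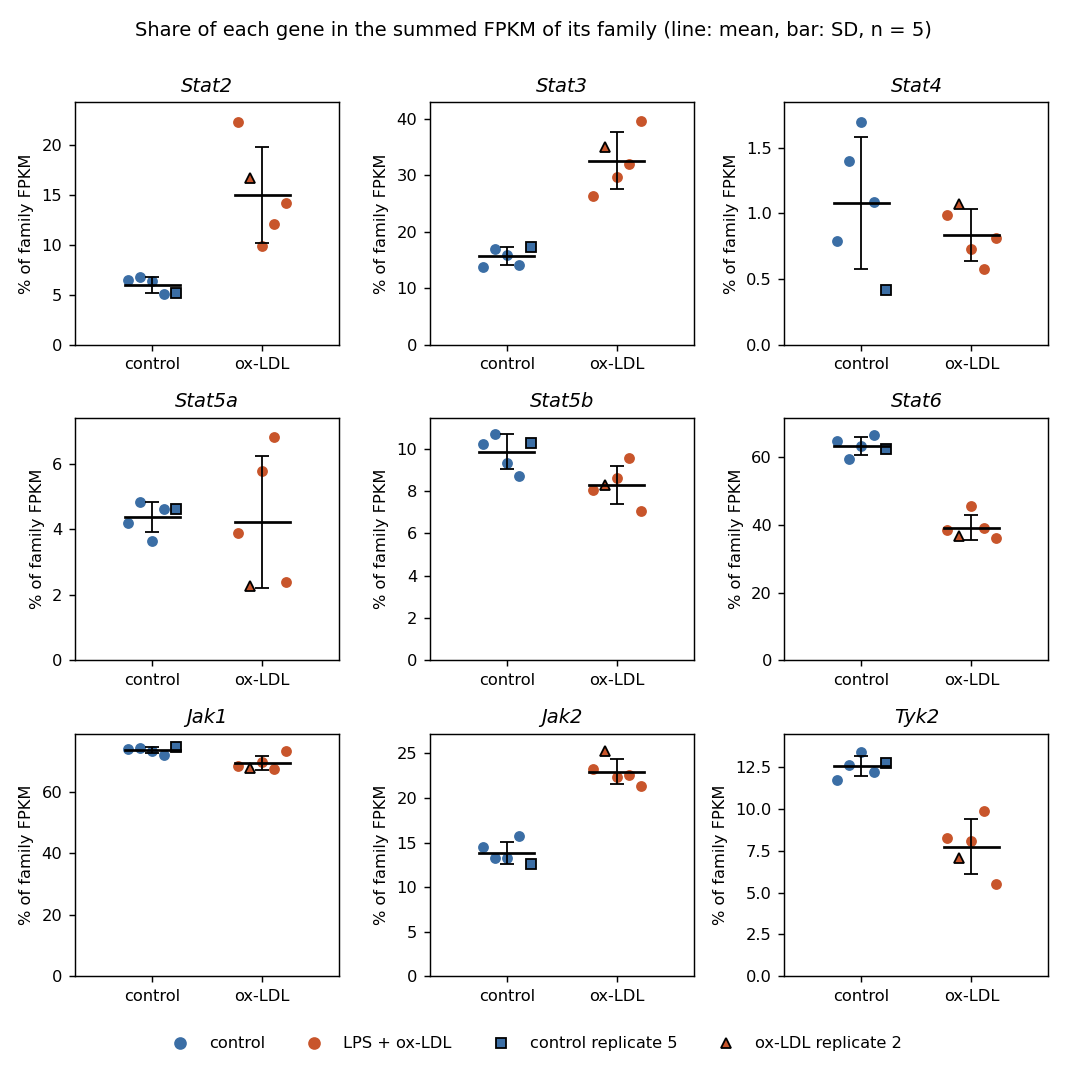
Share of each gene in the summed FPKM of its family, 6 STAT or 3 JAK genes, in each library, with the mean as a line and the SD as a bar (n = 5). Stat6 lies at 59.4% to 66.4% in controls and 36.0% to 45.4% in ox-LDL libraries, while Stat2, Stat3 and Jak2 hold larger shares in every ox-LDL library than in any control.

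Reads from Stat5a and Stat5b were not counted apart in full. The 2 genes lie on chromosome 11 within 8626 bases of each other on opposite strands. Their coding sequences share an identical run of 324 bases, at coding bases 571 to 894 of both genes, and 25.9% of the 50-base windows of Stat5a occur in Stat5b. None of the other 35 pairs of the 9 genes shared a window of 50 bases, and their longest common run was 23 bases. The ends of the run are shown 5′ to 3′ in the GENCODE annotation of build NCBIM37, with the shared bases in capitals and the sequence where the copies part in lower case.
Stat5a, 5′ end: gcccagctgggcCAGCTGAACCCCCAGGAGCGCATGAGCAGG
Stat5b, 5′ end: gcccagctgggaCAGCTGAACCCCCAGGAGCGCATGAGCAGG
Stat5a, 3′ end: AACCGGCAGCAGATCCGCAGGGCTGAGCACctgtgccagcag
Stat5b, 3′ end: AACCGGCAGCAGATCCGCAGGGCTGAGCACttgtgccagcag
In all 10 libraries the deposited count of each gene was not a whole number while the sum of both was whole within 0.01 counts. The sum was 399, 740, 614, 443 and 959 counts in control replicates 1 to 5 and 975, 285, 975, 1205 and 914 counts in ox-LDL replicates 1 to 5. Stat5a took 24.7% to 29.8% of the sum in the controls and 27.1%, 17.1%, 34.7%, 39.7% and 21.8% in ox-LDL replicates 1 to 5, a wider spread on both sides of the control range. Tested as 1 row, an alternative added after seeing the data, the sum had a log2 fold change of 0.65 (SE 0.26, edgeR adjusted p = 0.0808). The split between the copies is uncertain, and the sum does not depend on it.

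**Figure D4:**
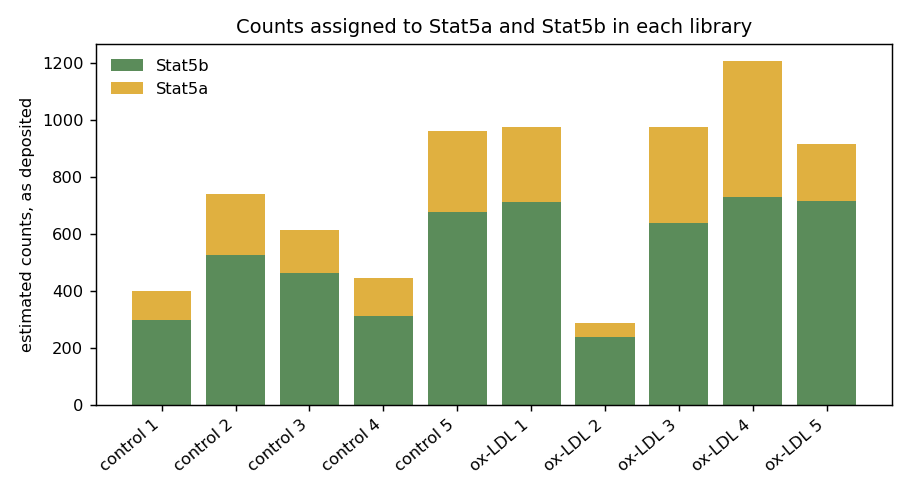
Deposited estimated counts of Stat5b (green) and Stat5a (yellow) stacked in each library, not scaled for depth. Their sum ranges from 399 to 959 in controls and from 285 in ox-LDL replicate 2 to 1205 in ox-LDL replicate 4.

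In build mm9 the genes lie at chr10:127707629-127729905 (Stat2), chr11:100746412-100800854 (Stat3), chr1:52043992-52164032 (Stat4), chr11:100720665-100746483 (Stat5a), chr11:100642045-100712038 (Stat5b), chr10:127080042-127098013 (Stat6), chr4:100824972-100937887 (Jak1), chr19:29326318-29387570 (Jak2) and chr9:20908521-20931790 (Tyk2). The 3′ ends of Stat3 and Stat5a overlap on opposite strands. Stat4, Stat6, Jak1 and Tyk2 also overlap other annotated genes, with Nab2 on the other strand of Stat6 and Raver2 on that of Jak1. Whether counting used the strand is not given in the sources used here, so reads in those overlaps cannot be told apart. Counts were whole in every library for Stat2, Stat3, Stat4, Stat6 and Jak2, not whole in 1 library for Jak1 and in 4 for Tyk2.

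The rest of the pathway was read from lists of 141 ligands, receptors, partners, inhibitors and known targets, of which 119 were tested and 57 rose and 11 fell, with a median log2 fold change of 1.18. Of the 141 genes, 10 stood in more than 1 list and count in each list below, so the lists are not independent of each other. The shares of the lists are to be read against the 9.4% of all genes that rose, the 5.35% that fell and the median of 0.10. Among the cytokine ligands, 8 of the 11 tested rose (72.7%) and 0 fell by edgeR, with a median of 3.62. Il6, Il12a and Ifng, with 5 counts or fewer in every control library, entered the test only through the ox-LDL libraries. The same holds for Il12rb1, Cish and Ifi44 in the lists below, with 8 counts or fewer in every control library. Il12b, Il27, Socs2 and Ghr, with control means of 0.186, 0.429, 0.302 and 0.354 CPM, also entered only that way. Further listed genes with low control counts may have done so too. With at least 10 counts required in every library, 2 ligands rose. Il12a, a subunit of IL-12, had 4 counts or fewer in each control library and 15.0 ± 14.6 CPM in the ox-LDL group (edgeR adjusted p = 0.000242). Il12b, its other subunit, rose by 8.19 (SE 1.10) on the log2 scale from at most 19 counts per control library (edgeR adjusted p = 0.000277). Ifng, interferon-gamma, had at most 5 counts in the controls and 8.99 ± 10.0 CPM in the ox-LDL group (edgeR adjusted p = 0.000860). The large SDs show how far the ox-LDL libraries differed for these cytokines.

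Receptor genes moved in both directions, with 10 of 26 tested higher (38.5%), 5 lower (19.2%) and a median of 0.28. The number higher was 6 without control replicate 2 or control replicate 4, 6 with library size alone and 3 by limma with log2(FPKM + 1). Il12rb1, the chain of the IL-12 receptor that pairs with Tyk2, had 4 counts or fewer in each control library and 3.00 ± 1.35 CPM in the ox-LDL group, whereas Il12rb2, the chain that pairs with Jak2, fell by 3.21 (SE 0.40, edgeR adjusted p = 0.000167). Il15ra rose by 3.78 (SE 0.37) and the oncostatin M receptor gene Osmr by 2.92 (SE 0.45) on the log2 scale. Il6ra, the IL-6 binding chain, and Ifngr1, the interferon-gamma binding chain, fell by 1.81 (SE 0.23) and 1.66 (SE 0.21) on the log2 scale, Ifngr1 from 171 ± 31.7 to 54.4 ± 11.2 CPM. These 6 receptor genes had no overlap between groups, but they were named for the largest fold changes among called genes. Over all genes tested, 11.6% had no overlap with higher and 9.11% with lower ox-LDL values. The called receptor genes Il21r (higher) and Il27ra (lower) did overlap. Of 8 tested partners 1 was called (12.5%, near the 9.4% of all genes), Stam2, an adaptor that binds Janus kinases, at 0.78 (SE 0.18, edgeR adjusted p = 0.00783). Its call was lost with upper-quartile scaling, library size alone, FPKM, the block of replicate numbers (adjusted p = 0.0223) and 8 of the 10 single libraries left out, every one but ox-LDL replicates 1 and 2 (adjusted p up to 0.0271). Irf9, the partner of Stat2, had a log2 fold change of 1.00 (SE 0.25) at an edgeR adjusted p of 0.0117, not past the threshold.

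Of 20 tested inhibitors 6 rose (30%), 2 fell (10%) and 12 were not called, with a median of 0.30. The number that rose was 3 with at least 10 counts required in every library, and also 3 by limma with log2(FPKM + 1). The feedback inhibitors Socs3 and Socs1, which bind receptors and kinases, rose by 5.58 (SE 0.77) and 5.12 (SE 0.80) on the log2 scale. Cish, of the same family, had 3 counts or fewer in each control library and 5.40 ± 2.25 CPM in the ox-LDL group (edgeR adjusted p = 3.2e-05). Socs6 fell by 1.60 (SE 0.25) on the log2 scale. Pdlim2, a ligase that targets STAT proteins for degradation, fell by 1.31 (SE 0.32, edgeR adjusted p = 0.00942) on that scale, a call that was lost without any single control library or without ox-LDL replicate 1, 3 or 4 (adjusted p up to 0.0282). The list thus held members that rose by more than any STAT or JAK gene beside members that fell.

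Lists of known targets were read for the STATs with the clearest target sets, and each target also answers to other factors. Of 23 tested targets of STAT2 with IRF9, 22 rose (95.7%) and 0 fell by edgeR, with a median of 3.10. They included the antiviral genes Ifit2 (6.11, SE 0.80), Ifi44 (5.97, SE 0.74) and Isg15 (5.50, SE 0.61), and only Trim30a did not pass, at 1.54 (edgeR adjusted p = 0.0125). Of 16 tested STAT3 targets 11 rose (68.8%) and 0 fell, with a median of 2.36, including Timp1, an inhibitor of matrix proteases (4.52, SE 0.37), and Ier3 (3.32, SE 0.40). Of 11 tested STAT5 targets 5 rose (45.5%) and 0 fell, with a median of 1.11. Those that rose included the cytokine gene Osm (3.62, SE 0.71) and Socs2 (3.15, SE 0.51), the latter from 10 counts or fewer in each control library. Among them, Cish and Socs2 were also in the inhibitor list, Osm in the ligand list and Pim1 in the list of STAT3 targets. The call of Osm was lost without control replicate 2, 3 or 4 (edgeR adjusted p up to 0.0111). With at least 10 counts required in every library, 2 STAT5 targets rose.

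Of 13 tested STAT6 targets, 2 were called higher (15.4%) and 4 fell (30.8%), with a median of -0.18. The 2 higher were the chemokine genes Ccl22 (4.23, SE 0.83) and Ccl24 (2.55, SE 0.55). Both calls were lost with the block of replicate numbers (edgeR adjusted p = 0.0138 and 0.0199) and without control replicate 1, that of Ccl22 also without control replicate 4, and that of Ccl24 also without control replicate 2, 3 or 5 or ox-LDL replicate 1 or 5. Clec10a and Mrc1, lectin receptors of alternatively activated macrophages, fell by 3.83 (SE 0.43) and 2.24 (SE 0.28) on the log2 scale. Pparg, a lipid-sensing nuclear receptor, fell by 2.45 (SE 0.24) on that scale. Arg1, Chil3 and Retnla, also genes of alternative activation in this list, were not called. Their log2 fold changes were 3.60 (edgeR adjusted p = 0.0189), 0.30 and -0.29. Stat6 itself had a log2 fold change of 0.09, as given above.

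**Figure D5:**
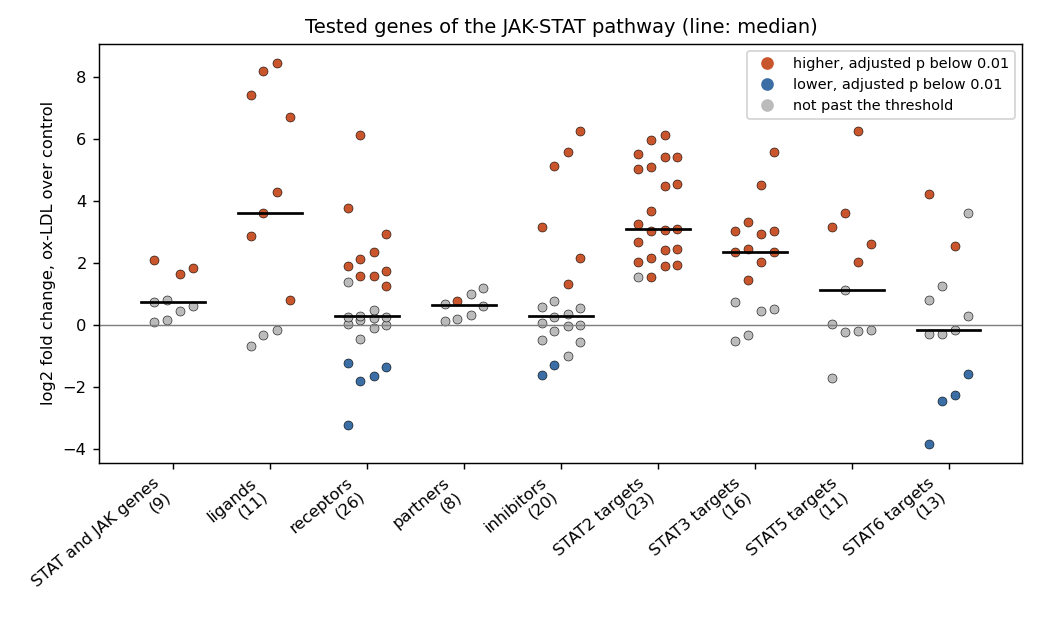
Fitted log2 fold change of each tested gene by list, with the number tested in parentheses, the median as a line, orange for higher and blue for lower genes at an edgeR adjusted p below 0.01 and grey for the others. Medians run from -0.18 for STAT6 targets to 3.62 for ligands, and the size of the largest values rests on controls with few counts.

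Markers of other cells were read on the scale of library size alone. The 8 macrophage markers summed to 22972 to 42704 CPM in the controls and 12686 to 28134 CPM in the ox-LDL libraries, sums that were mostly Lyz2, which did not pass the test (log2 fold change -0.67, edgeR adjusted p = 0.371). Without Lyz2 the other 7 summed to 1789 to 3495 and 1795 to 4381 CPM. Among them, Adgre1 rose by 2.07 (SE 0.28) and C5ar1 fell by 2.71 (SE 0.31) on the log2 scale. Of 6 mesothelial and stromal markers, Col1a1, Col1a2 and Dcn were tested and all 3 rose, with a summed level of 14.6 to 47.9 CPM in the controls and 64.3 to 160 CPM in the ox-LDL libraries. Msln, Upk3b and Krt19 had too few counts to be tested. Of these, Upk3b went the other way, with 0.296 to 0.860 CPM in the controls and 0 to 0.266 CPM in the ox-LDL libraries. Of 7 neutrophil markers, 2 were tested and 1 rose, with sums of 17.2 to 43.5 and 24.2 to 92.3 CPM. S100a8 had 6.35 to 13.0 CPM in the controls and 12.9 to 90.2 CPM in the ox-LDL libraries, whereas Mmp8 had 5.33 to 37.1 and 1.37 to 10.7 CPM. Sums of the B cell (1.13 to 2.85 and 0.659 to 3.52 CPM), dendritic cell (1.37 to 2.73 and 2.27 to 4.00 CPM) and mast cell and eosinophil markers (0.394 to 4.51 and 0.209 to 1.60 CPM) were low in both groups, and 1 of the 2 tested dendritic cell markers rose. The part of these cells in the values of the STAT and JAK genes was not tested.

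Across libraries the 9 genes also varied within their groups. After each group's mean log2 CPM was subtracted, Jak1 and Jak2 had a Pearson r of 0.98 over the 10 libraries, Stat6 and Jak1 also 0.98, and Stat5a and Tyk2 0.92, whereas the lowest pair was Stat4 and Stat5a at -0.05. Among 7504 genes with a mean of at least 10 CPM, the closest included Stard3 and Prkch for Stat2 (r = 0.935 and 0.929), Tap2 and Etv6 for Stat3 (0.997 and 0.995), Dnajb11 and Gda for Stat4 (0.944 and 0.936), Prkcd and Mark2 for Stat5a (0.979 and 0.976) and Trim25 and Psd4 for Stat5b (0.980 for both). They also included Scyl2 and Slc11a1 for Stat6 (0.983 and 0.982), Ddx27 and Kpna6 for Jak1 (0.994 and 0.984), Mta2 for Jak2 (0.984) and Arsa and Pygo2 for Tyk2 (0.990 for both). The libraries share their depth and the length trend of ox-LDL replicate 2 in every such value, so these are descriptions of the 10 libraries. Genes that varied alike did not all change alike between the groups. Prkch had a log2 fold change of -1.40 beside 2.10 for Stat2, and Mta2 one of 0.20 beside 1.64 for Jak2. Others were nearer to each other, with 2.25 for Tap2 beside 1.85 for Stat3 and -0.08 for Arsa beside 0.15 for Tyk2.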

How the data were processed

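RNA of 10 libraries (5 per group, by the labels) was sequenced on BGISEQ-500. HISAT2 2.0.5 (build mm9), SAMtools 1.4 and StringTie were used by the authors. The deposited table holds estimated counts, 13.6% of them not whole, and was rounded. The authors also deposited a length-scaled value with no named unit, treated as FPKM because it implied a constant length per gene (median CV 1.78% over 10664 genes). The step that made the counts is not given in the sources used here. Circular RNA rows (9788, 1.44% to 2.24% of counts) were left out. Symbols came from RefSeq (GRCm38.p6), mm9 positions from GENCODE. The test was edgeR 4.0.16 (robust quasi-likelihood, filterByExpr, TMM, no block) in R 4.3.3, with a biological coefficient of variation of 37.3%. Alternatives used DESeq2 1.42.0 and limma 3.58.1. Scripts were tested on simulated data. The STAT and JAK genes, lists and markers were chosen with earlier results of these data known. Named genes were the 9 genes, up to 3 called genes with the highest and 3 with the lowest log2 fold change in each list (mean of 1 CPM or more in either group), and the 2 genes most alike to each of the 9. Il6, Il27, Il21r, Il27ra, Ghr, Pim1, Irf9, Trim30a, Arg1, Chil3, Retnla and the genes of the marker and overlap checks were named after their values were seen. Some other genes are not reported here.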

Additional observations from a re-analysis of the deposited data

How the results depend on the processing

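The calls of Stat2, Stat3 and Jak2 held when any single library was left out and under DESeq2, limma-voom, upper-quartile scaling, other count filters, length trends removed and circular RNA rows included. Of the 23 settings tried for each, Stat2 and Jak2 lost the call in 1 and Stat3 in 3. With limma on log2(FPKM + 1) without a filter, 0 of the 9 genes passed, with adjusted p of 0.0192 for Stat2, 0.0392 for Stat3 and 0.0184 for Jak2, and 32 pathway genes rose in place of 57. Stat3 also missed the threshold with log2(FPKM + 0.1), at 0.0111. With control replicate 5 and ox-LDL replicate 2 both left out, 6 of the 9 genes rose, adding Jak1, Stat5a and Stat5b. With all libraries and a log2 fold change above 2, 1 of the 9 genes rose.

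Over all genes, 1189 rose and 677 fell. The number that rose was 704 with library size alone, 555 with log2(FPKM + 1), 543 with log2(FPKM + 0.1), 472 with log2(FPKM + 1) without a filter, 1843 without both libraries and 2045 at an adjusted p below 0.05. The number that fell was 1244 with DESeq2, 1229 with the length trend removed, 1483 without both libraries and 1320 at an adjusted p below 0.05. With single libraries left out, 826 to 1755 rose and 436 to 1502 fell, with 436 without control replicate 4, 437 without ox-LDL replicate 3 and 1502 without ox-LDL replicate 2.

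Stat6 had a log2 fold change of -0.0615 with upper-quartile scaling, -0.0633 with library size alone, -0.136 with log2(FPKM + 1) with and without a filter and -0.145 with log2(FPKM + 0.1). With single libraries left out it was -0.0952 to 0.244, and below 0 without control replicate 1 or ox-LDL replicate 5. Tyk2 had -0.0111 with log2(FPKM + 1) with and without a filter, -0.0341 with log2(FPKM + 0.1) and -0.0271 with the length trend removed. The difference in the share of Stat5a was -0.149 percentage points, from -0.795 to 0.341 with single libraries left out, and above 0 without ox-LDL replicate 2 or 5. None of these passed a test, and the cause of the changes was not tested.

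Replicate numbers did not pair the libraries throughout. Same-number correlations of deviations were 0.029, -0.245, 0.424, -0.263 and 0.403 for numbers 1 to 5. Only number 5 was above its highest correlation with another number (0.099), and whether its libraries share material was not tested. With the replicate number as a block, 885 genes rose and 549 fell, 49 pathway genes rose and 11 fell, and 3 of the 9 genes rose. Permutation of the shares within pairs allows no p under 0.0625, so that 0 of the 9 shares could pass there. Depth limits Stat4 most, at 13 to 51 counts.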
